A study of Sus scrofa with 28 samples.

Results

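MAX, MXI1 and MYCN are factors of the MYC network, and each was represented by 1 probe set, so that 3 of 5226 probe sets and 3 of 2274 named genes are described here. The probe sets were found by gene symbol in the study's tables of differentially expressed genes and of regulatory factors, and otherwise in the annotation of the array. MAX (Ssc.19313.1.A1_at) is in both study tables, MXI1 (Ssc.19163.1.S1_at) is among the factors and in the array annotation, and MYCN (Ssc.27410.1.S1_at) is among the factors. The study picked MAX for its difference between genetic types, and the 3 factors for their impact scores, on these same arrays, so neither is independent evidence here.

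The proteins of this network bind E-box sequences in promoters as pairs of basic helix-loop-helix leucine zipper factors. MAX is the shared partner. With MYC or MYCN it activates genes of growth, ribosome synthesis and the cell cycle, and with MXI1 or other MXD factors it recruits the SIN3 corepressor to the same sites. In muscle precursors, MYC proteins favour proliferation over differentiation, while MXD factors are known from cells that leave the cell cycle.

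Expression was measured with one porcine genome array per animal in the loin muscle (Longissimus dorsi) of 28 male piglets. They were 28 days old, and 14 were of the pure Iberian breed (IB) and 14 were Duroc × Iberian crosses (DU×IB). All piglets had Iberian dams and were slaughtered at weaning. Sires were Iberian boars in IB and Duroc boars in DU×IB. By the study's methods the DU×IB piglets came from fewer litters than the IB piglets, and the labels do not name the litter, so that p-values over piglets may be too small, and litter and genetic type cannot be told apart. The tissue label could not be checked on muscle fibre markers, since 0 of 18 were among the named probe sets kept by the study's variation filter. Of the 5226 probe sets kept, 2581 have no gene name, so such markers may be there without a name. MYOD1, a factor of myoblasts, was measured at 7.67 on the log2 scale. As this is bulk muscle, fewer cells of a type and less RNA per cell cannot be told apart.

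The arrays were hybridized in 2 series, and the split between piglets 1 to 8 and 9 to 14 of each genetic type was read from 10 spike-in probe sets, whose mean ran from 8.93 to 9.68 in the 16 arrays of the first series and from 6.19 to 7.01 in the 12 of the second. Array medians did not overlap either, with 6.01 to 6.71 against 6.88 to 7.05. The first principal component took 47.3% of the variance and had an r² of 0.796 with the series. Each series holds both genetic types in equal numbers, and the series was therefore a term in the comparison of genetic types and a centring step in the correlations.

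The 3 factors were measured at very different signal strengths. The mean level of MAX was at percentile 83.4 of all probe sets, MXI1 at 49.5 and MYCN at 1.59, close to the lowest signals of the arrays. Of the 14 network gene symbols listed, MYC and MGA were the only others with a named probe set among those kept by the study, at percentiles 63.1 and 25.9. Levels of different probe sets depend on their probes as well as on the transcript, and no order of abundance among these genes is drawn from them.

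MAX, the shared partner, was the one of the 3 that passed the test between genetic types. Its log2 level had a lowest, median and highest value of 8.34, 9.07 and 9.89 in IB, and of 8.00, 8.60 and 8.99 in DU×IB. All of the 14 DU×IB piglets were under the median of IB, and 8 of 14 IB piglets lay above every DU×IB piglet, although the ranges overlapped. The means were 9.10 ± 0.46 (SD, n = 14) in IB and 8.57 ± 0.35 (SD, n = 14) in DU×IB. MAX was 1.44-fold upregulated in IB, with a difference of -0.52 on the log2 scale (SE 0.15) and an adjusted p of 0.0737 by limma, under the threshold of 0.10. That threshold was passed by 145 probe sets in all (2.77%), of which 37 were higher in IB (0.708%) and 108 in DU×IB (2.07%), and MAX ranked 110 by p.

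**Figure D1:**
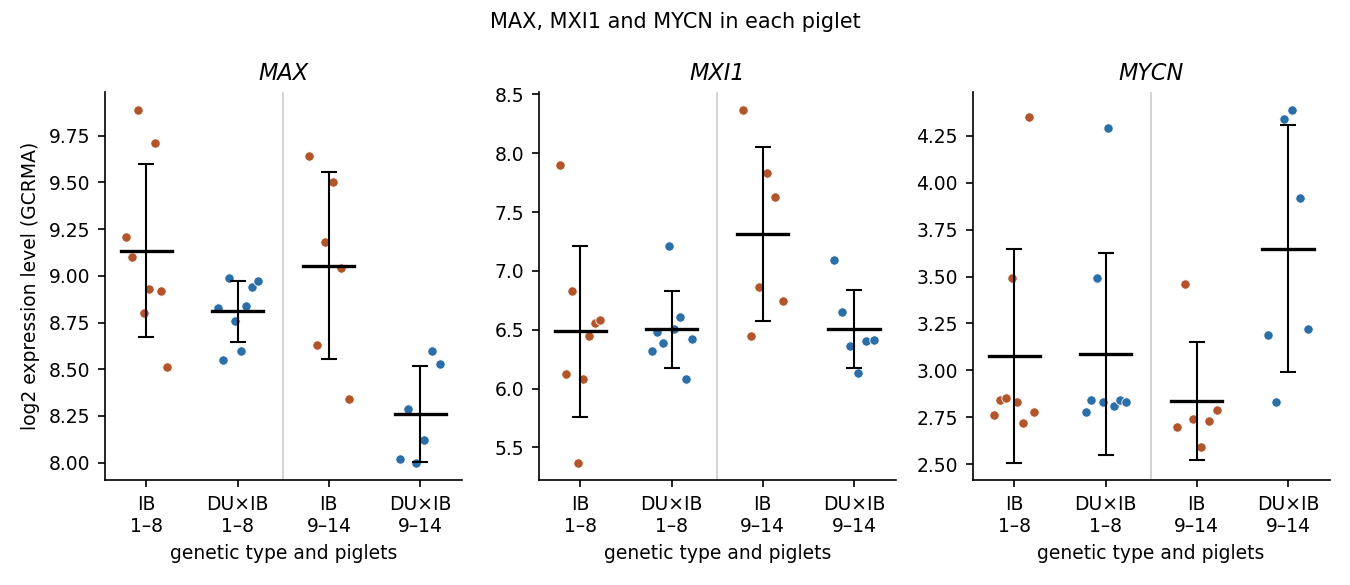
Log2 expression level of MAX, MXI1 and MYCN (vertical axis) in each piglet, by genetic type and hybridization series (horizontal axis: piglets 1 to 8 and 9 to 14). Points are piglets, and black bars are the mean ± SD. All DU×IB piglets lie under the IB median of MAX, and MYCN lies over 3.0 in 5 of 6 DU×IB piglets of the second series.

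The call of MAX stood close to the threshold. Without the series term the adjusted p was 0.245, with 52 probe sets called (0.995%). Leaving out each of the 28 piglets in turn gave differences between -0.58 and -0.47 and adjusted p-values from 0.0399 to 0.136, and the call was lost for 12 of the 28 (IB piglets 3, 6, 9, 11, 12 and 13 and DU×IB piglets 2, 5, 9, 10, 11 and 12). With each array centred on its median the adjusted p was 0.104.

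MXI1, which pairs with MAX as a repressor, ran from 5.37 to 8.37 in IB with a median of 6.66, and from 6.08 to 7.21 in DU×IB with a median of 6.41. The DU×IB range lay inside the IB range, with 4 IB piglets above and 2 below every DU×IB piglet. Means were 6.84 ± 0.82 (SD, n = 14) in IB and 6.50 ± 0.31 (SD, n = 14) in DU×IB. The difference was -0.34 (SE 0.22) and did not pass the test, with an adjusted p of 0.540 by limma.

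MYCN, the MYC paralogue best known from the developing nervous system, ran from 2.59 to 4.35 in IB with a median of 2.78, and from 2.78 to 4.39 in DU×IB with a median of 3.02. Most piglets lay near the bottom of the array's scale, and its level passed 3.0 in 3 of 14 IB and 7 of 14 DU×IB piglets. Means were 2.97 ± 0.48 (SD, n = 14) in IB and 3.33 ± 0.64 (SD, n = 14) in DU×IB. The difference was 0.35 (SE 0.21) with an adjusted p of 0.490 by limma. In IB, 6 piglets lay below every DU×IB piglet, and 1 DU×IB piglet lay above every IB piglet.

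MYC itself had the same mean in both genetic types, at 7.40 ± 0.59 in IB and 7.40 ± 0.52 in DU×IB (SD, n = 14 each), with a difference of -0.0016 (SE 0.21). MGA, another partner of MAX, differed by -0.12 (SE 0.14) with an adjusted p of 0.794 by limma. Among the 5 network genes measured, only MAX passed the test. The median difference of these 5 was -0.12, against 0.0159 over all probe sets.

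Estimates of the 3 differences were larger in the second hybridization series. For MAX, the difference was -0.32 (SE 0.19) in piglets 1 to 8, where 4 of 8 IB piglets lay above every DU×IB piglet, and -0.79 (SE 0.22) in piglets 9 to 14, where 5 of 6 did. The values for MXI1 were 0.0147 (SE 0.27) in the first series and -0.81 (SE 0.30) in the second, where all 6 DU×IB piglets were under the median of IB and 4 were below every IB piglet. For MYCN they were 0.0112 (SE 0.27) and 0.81 (SE 0.28), and its level passed 3.0 in 2 of 8 piglets of either genetic type in the first series but in 1 of 6 IB and 5 of 6 DU×IB piglets in the second. No factor separated the genetic types completely in either series, which 0.0765% of probe sets did in the first and 2.43% in the second. On the fits of the second series alone, the adjusted p was 0.0941 for MAX, 0.163 for MXI1 and 0.133 for MYCN, with 4.38% of probe sets called, against 0.172% in the first series.

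The difference between series was itself not established. The interaction of genetic type and series was -0.47 (SE 0.30) for MAX with an unadjusted p of 0.124 by limma, -0.83 (SE 0.42) for MXI1 with 0.0589 and 0.80 (SE 0.40) for MYCN with 0.0558, and the adjusted p-values were 0.801, 0.781 and 0.781. Over all probe sets, limma called 0 interactions and 333 had an unadjusted p under 0.05 (6.37%). No piglet was hybridized in both series, so that series and the piglets in it cannot be told apart.

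**Figure D2:**
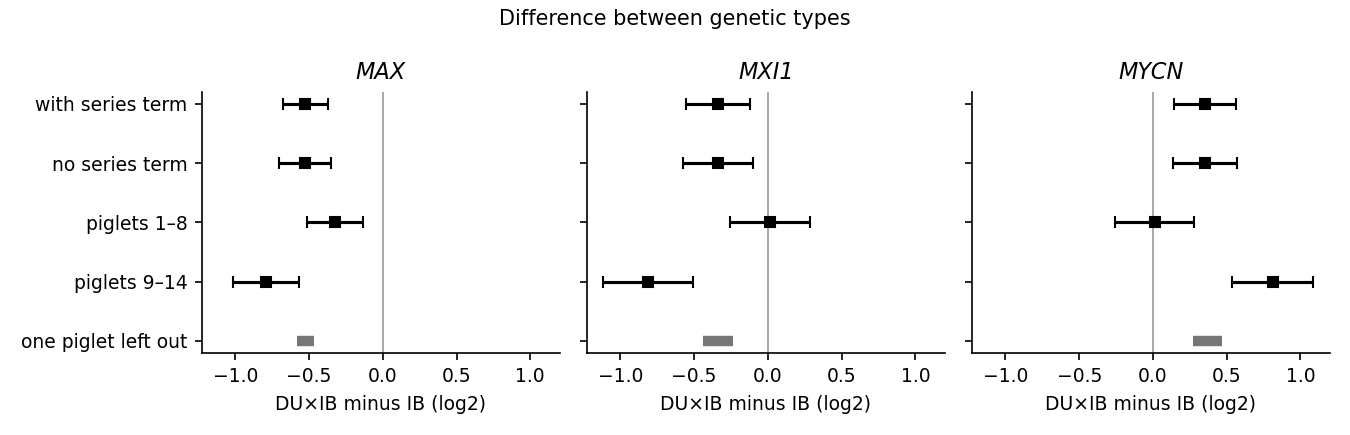
Difference in log2 level, DU×IB minus IB (horizontal axis), for MAX, MXI1 and MYCN under 4 fits (vertical axis), with squares for the difference and bars for its SE. Grey bars span the values with one piglet left out, which run from -0.58 to -0.47 for MAX. MXI1 and MYCN are near 0 in piglets 1 to 8 and beyond 0.80 in size in piglets 9 to 14.

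MAX and MXI1 were more variable among IB than among DU×IB piglets. Within series, the SD of MAX was 0.48 in IB and 0.21 in DU×IB, a ratio of 2.30, and that of MXI1 was 0.73 and 0.33, a ratio of 2.23. MYCN went the other way, with 0.48 and 0.59. In a test of absolute deviations chosen after these values were seen, the unadjusted p by limma was 0.0157 for MAX and 0.0126 for MXI1, and the adjusted values of 0.224 and 0.201 did not pass. A larger SD in IB was common in the whole table, in 76.4% of probe sets, with a median SD of 0.534 in IB and 0.424 in DU×IB. At that threshold 2.12% of probe sets were called, and 14.2% had an unadjusted p under 0.05, most of them with the larger spread in IB (12.4%).

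No relation among the 3 factors passed the test. After centring by series, MAX and MXI1 had a Pearson r of 0.55 in IB (permutation p = 0.0532) and -0.28 in DU×IB (permutation p = 0.364), with Spearman rho of 0.62 and -0.21. In IB the relation was 0.32 in the first series and 0.84 in the second, and it stayed at 0.52 without the 2 piglets farthest from the median of MAX. The slope of MXI1 on MAX did not differ between genetic types past the threshold, with an adjusted p of 0.602 by limma. MYCN was negatively related to both other factors in both genetic types, with r of -0.36 and -0.28 for MAX and -0.35 and -0.35 for MXI1 in IB and DU×IB. Over the 6 relations, the two-sided permutation p adjusted over them was 0.319 at the lowest, and 0.116 for Spearman's rho.

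MXI1 and MGA had an r of 0.73 in DU×IB and 0.0008 in IB, which did not pass the test either, with an adjusted p of 0.672 by limma for the slope in DU×IB. Without the 2 piglets farthest from the median of MXI1, r was 0.40 in DU×IB and -0.34 in IB. The SD of MGA within series was 0.47 in DU×IB and 0.17 in IB. None of the other relations with MYC or MGA had a slope past the threshold in either genetic type.

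Across all other probe sets, the number correlated with MAX depended on the series. On values centred by series, the slope on MAX passed the limma test (adjusted p under 0.10) in IB for 335 of 5225 probe sets (6.41%), 114 positive (2.18%) and 221 negative (4.23%), and in DU×IB for 0, where 507 had an unadjusted p under 0.05. Without centring, 2821 probe sets (54.0%) passed in DU×IB and 97 (1.86%) in IB, and 0 of the 2821 passed once the series were centred. The level of MAX itself moved with the series in DU×IB, at 8.81 ± 0.17 (SD, n = 8) in piglets 1 to 8 and 8.26 ± 0.26 (SD, n = 6) in piglets 9 to 14, while in IB it was 9.13 ± 0.46 (SD, n = 8) and 9.05 ± 0.50 (SD, n = 6). Its uncentred r with the spike-in signal was 0.85 in DU×IB and 0.094 in IB. Centring did not remove that relation in DU×IB, where r was still 0.52 (rho 0.66) for MAX and was -0.50 (rho -0.36) for MYCN, and its part in the correlations within DU×IB was not tested.

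**Figure D3:**
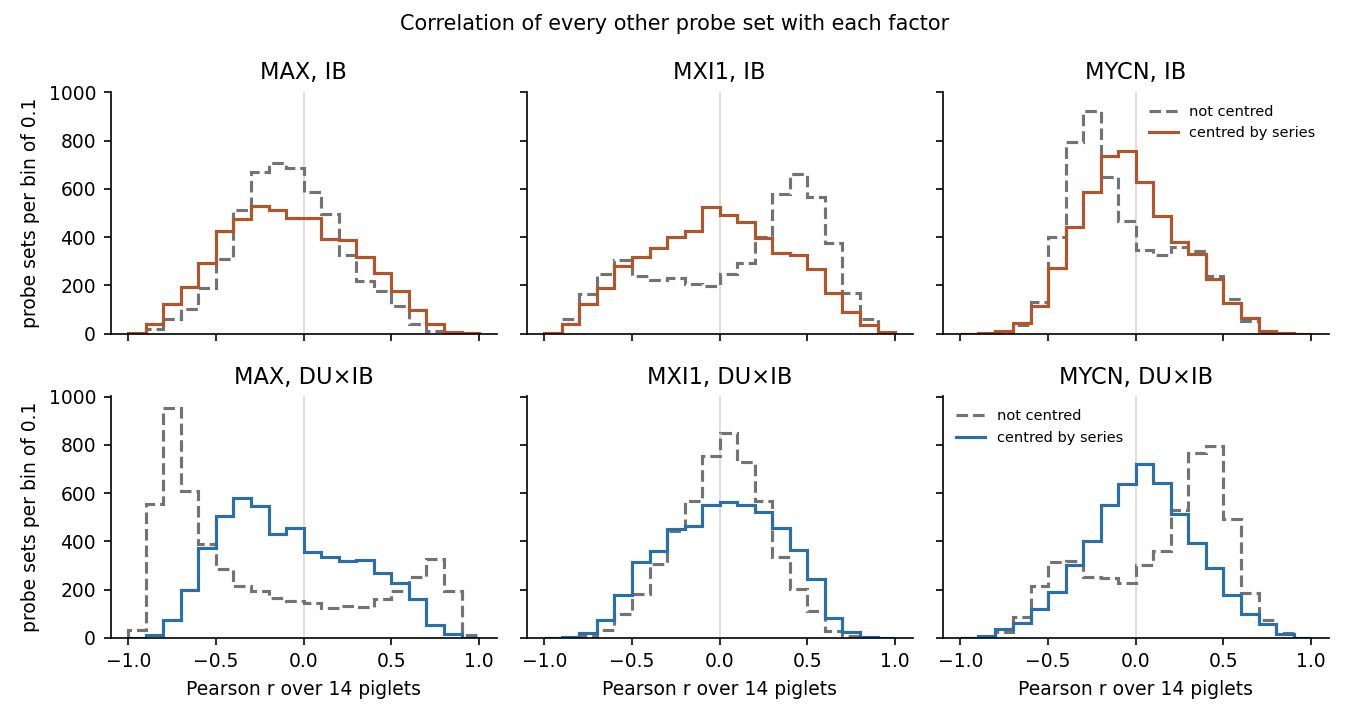
Number of probe sets (vertical axis) by Pearson r with MAX, MXI1 or MYCN over 14 piglets (horizontal axis, bins of 0.1), in IB (top row) and DU×IB (bottom row). Solid lines are values centred by series and dashed lines are values as deposited. For MAX in DU×IB, the dashed line piles up at both ends, with 2075 probe sets beyond 0.7 in size, against 151 for the solid line.

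The contrast of 335 against 0 calls depended on the measure. Centred r exceeded 0.7 in size for 212 probe sets in IB and 151 in DU×IB. The slope test shares one estimate of the residual spread between genetic types, and the SD of MAX was 2.30 times larger in IB. With ranks in place of levels, 0 probe sets passed in IB and 609 in DU×IB. With each genetic type fitted alone, an alternative chosen after seeing the data, 65 passed in IB and 0 in DU×IB. Leaving out one piglet moved the IB count between 144 (without IB piglet 3) and 811 (without IB piglet 6), with 222 without IB piglet 9 or 10.

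The genes most closely related to MAX in IB lay on both sides. The 5 most negative were CHODL (r = -0.91), ACAT2, an enzyme of cholesterol synthesis (r = -0.89), HSD17B12, an enzyme of fatty acid elongation (r = -0.88), MAD2L1, a spindle checkpoint protein (r = -0.87), and RACGAP1, required for cytokinesis (r = -0.86). The 5 most positive were DLG5 (r = 0.86), the histone demethylase KDM5A (r = 0.85), LPIN1, a phosphatidate phosphatase (r = 0.80), DDIT4L, a negative regulator of mTOR signalling (r = 0.79), and the growth factor receptor adaptor GRB10 (r = 0.79). All 10 slopes passed the limma test, with adjusted p-values from 0.00653 for HSD17B12 to 0.0592 for ACAT2, and r stayed between 0.71 and 0.88 in size without the 2 piglets farthest from the median. In DU×IB the r of these genes ran from -0.66 (DDIT4L) to 0.55 (DLG5), and none passed.

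In DU×IB, the genes most positively related to MAX were the smooth muscle protein TAGLN (r = 0.86), PATL1 (r = 0.85), thrombomodulin THBD (r = 0.85), TRAFD1 (r = 0.83) and the tumour necrosis factor receptor TNFRSF1B (r = 0.82). The most negative were CAPN7, a calpain (r = -0.85), FAIM (r = -0.83), MBIP (r = -0.80), TRDMT1 (r = -0.80) and ZNF133 (r = -0.80). None of these slopes passed the limma test in DU×IB, where the lowest adjusted p of the 10 was 0.114 for FAIM and ZNF133.

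The slope on MAX differed between genetic types for 4 probe sets (0.0766%), and 502 had an unadjusted p under 0.05 (9.61%). All 4 were named, and each had an adjusted p of 0.0701 by limma. HSP90B1, a chaperone of the endoplasmic reticulum, had an r of -0.75 in IB and 0.80 in DU×IB. ACTG2, the actin of smooth muscle, had -0.58 and 0.81. FAIM, an inhibitor of Fas-mediated cell death, had 0.38 and -0.83, and the zinc finger factor ZNF133 had 0.49 and -0.80, both at low mean levels of 4.01 and 2.83. The sign of r was opposite in the 2 genetic types for these 4, and their number fell to 0 when any one of 8 piglets was left out (IB 9, 11 and 12 and DU×IB 2, 7, 9, 13 and 14) and to 1 without DU×IB piglet 11. It rose to 8 without IB piglet 1 or 8 and to 7 without DU×IB piglet 3, 10 or 12.

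On centred values, MXI1 had the largest number of correlated probe sets of the 3 factors, again in IB. There 582 of 5225 (11.1%) passed the limma test, 292 positive (5.59%) and 290 negative (5.55%), and 0 passed in DU×IB, where 305 had an unadjusted p under 0.05. Without centring the counts were 1636 (31.3%) and 0, and 462 of the 582 were called in both. Centred r exceeded 0.7 in size for 295 probe sets in IB and 53 in DU×IB. No slope differed between genetic types by limma, with 176 probe sets at an unadjusted p under 0.05 (3.37%), so a difference between IB and DU×IB was not established. With ranks 0 passed in IB, with IB fitted alone 213 did, and leaving out one piglet gave 279 (without IB piglet 1) to 671, with 304 without IB piglet 10.

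The 5 genes most positively related to MXI1 in IB were METTL7A (r = 0.94), CREG1, a secreted glycoprotein tied to cell differentiation (r = 0.93), the mitochondrial enzyme CLYBL (r = 0.88), the growth hormone receptor GHR (r = 0.86) and the ubiquitin ligase RNF19B (r = 0.86). The most negative were the methionine sulfoxide reductase MSRB1 (r = -0.92), the polyadenylation factor CSTF3 (r = -0.89), fibrillin FBN2 (r = -0.89), the glycolytic enzyme GAPDH (r = -0.88) and fibromodulin FMOD (r = -0.88), a proteoglycan of the collagen matrix. All 10 slopes passed, with adjusted p-values between 6.77e-05 (CREG1) and 0.00901 (CSTF3) by limma, and r stayed at 0.81 or more in size without the 2 farthest piglets. METTL7A, CREG1 and CLYBL kept the same sign in DU×IB at 0.73, 0.57 and 0.45 without passing, while GHR was at 0.025 and FMOD at -0.12. Without the 2 farthest DU×IB piglets, METTL7A was at 0.49, CREG1 at 0.32 and CLYBL at 0.51.

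In DU×IB, ANKFY1 (r = 0.84), LOC100625971 (r = 0.84), ATL2 (r = 0.76), FAM46C (r = 0.76) and SENP5 (r = 0.75) were most positive with MXI1. ICAM1 (r = -0.90), the mitochondrial phosphatase PTPMT1 (r = -0.84), the cardiac and fetal muscle actin ACTC1 (r = -0.81), AGK (r = -0.80) and the amino acid transporter SLC7A1 (r = -0.80) were most negative. None passed the limma test in DU×IB, and without the 2 farthest piglets the r of ATL2 fell to 0.36. In IB, ANKFY1 (r = 0.84, adjusted p = 0.00466 by limma), LOC100625971 (r = 0.72), PTPMT1 (r = -0.55) and SLC7A1 (r = -0.67) passed with the same sign.

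MAX and MXI1 shared part of their correlated probe sets in IB. Of those called, 167 were common to both, 49.9% of the MAX list and 28.7% of the MXI1 list, and all 167 had the same sign for the 2 factors. As both lists come from the same 14 piglets, in which the factors had an r of 0.55, they are not independent.

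MYCN was correlated with few probe sets. In IB, 2 of 5225 passed (0.0383%), and both belong to ADSSL1, the muscle adenylosuccinate synthase of purine nucleotide synthesis, with r of -0.76 and -0.75 and adjusted p-values of 0.0087 and 0.00962 by limma. The SD of ADSSL1 was 2.68 in IB and 0.384 in DU×IB by its brighter probe set. The IB count was 10 without IB piglet 7 and 5 without IB piglet 2 or 5. In DU×IB, 10 passed (0.191%), all positive, of which 6 have a gene name. They include NUF2, a kinetochore protein (r = 0.90, adjusted p = 0.00781 by limma), DLGAP5, a spindle protein (r = 0.87), the integrin ITGA6 (r = 0.88), LRRN3 (r = 0.78), latexin LXN (r = 0.78) and the cell cycle factor E2F8 (r = 0.73). Without the 2 farthest DU×IB piglets, r was 0.83 for NUF2, 0.76 for ITGA6 and 0.75 for DLGAP5. It was 0.60 for LRRN3, 0.59 for LXN and 0.34 for E2F8. E2F8 and LRRN3 had low mean levels, at 3.085 and 3.84. NUF2, DLGAP5 and E2F8 had r between 0.38 and 0.40 in IB, and no slope differed between genetic types by limma, with 142 at an unadjusted p under 0.05 (2.72%). The 10 calls in DU×IB fell to 0 without DU×IB piglet 5, to 1 without DU×IB piglet 6, 8, 10, 12 or 14, to 2 or 3 without DU×IB piglet 1, 2 or 11 or IB piglet 2, 5, 8, 12 or 13, and to 5 or 6 without DU×IB piglet 4 or 9 or IB piglet 9. They rose to 18 without DU×IB piglet 7, and with ranks 0 passed in either genetic type.

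CDCA7 (r = 0.88), a cell cycle gene that MYC activates, and SLC38A1 (r = 0.85) completed the 5 most positive genes with MYCN in DU×IB without passing the test. The most negative were OAS1 (r = -0.85), IFI44L (r = -0.80), RSAD2 (r = -0.79) and IFIT1 (r = -0.75), each known to be induced by interferon, and AKR1CL1 (r = -0.77), and none passed. In IB these 5 ran from -0.51 to -0.23. In IB the most positive were ACOT7 (r = 0.84), PPFIBP1 (r = 0.83), INSIG1 (r = 0.80), ATP6V0D1 (r = 0.78) and LRRN3 (r = 0.78), and the most negative, beside ADSSL1, were CNTF (r = -0.77), the AMP kinase subunit PRKAB2 (r = -0.76), LOC100525935 (r = -0.74) and NT5C3A (r = -0.73). Without the 2 farthest piglets LRRN3 fell to 0.25 and ACOT7 to 0.51 in IB, where the highest MYCN level of 4.35 came from 1 piglet.

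**Figure D4:**
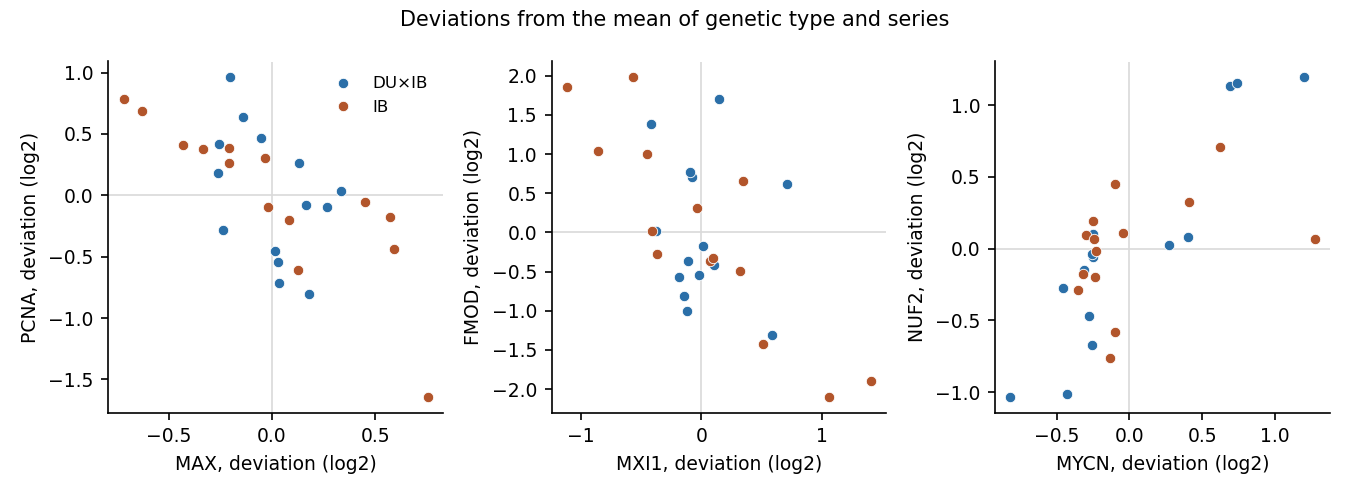
Deviation of PCNA, FMOD and NUF2 (vertical axes, log2) against that of MAX, MXI1 and MYCN (horizontal axes, log2), each from the mean of its genetic type and series, with one point per piglet. PCNA falls with MAX and FMOD with MXI1 in IB (r of -0.84 and -0.88), and NUF2 rises with MYCN in DU×IB (r = 0.90). In the other genetic type r is -0.43 for PCNA, -0.12 for FMOD and 0.38 for NUF2.

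Calls among known targets and partners of the network are read against the 2.77% of all probe sets called between genetic types, a share at which lists this small hold few calls or none. Of 55 listed symbols of genes that MYC activates, 19 were measured and 0 were called by limma, with a median difference of 0.0427 on the log2 scale against 0.0159 over all probe sets. Of 20 that MYC represses, 9 were measured, and 1 was called, COL1A1, the main fibrillar collagen chain, higher in DU×IB by 1.21 (SE 0.29, adjusted p = 0.0270 by limma), with an adjusted p of 0.187 without the series term. Another 7 of the 9 were lower in DU×IB without passing, and the median was -0.34. Among 12 other E-box factors, 6 corepressors of the MXD factors and 4 cofactors of MYC proteins, 0 were called. These counts say nothing particular to the lists.

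Within IB, activated targets were mostly negative with MAX and MXI1. The r with MAX was negative for 16 of 19, with a median of -0.34 against -0.096 over all probe sets, and PCNA, the DNA polymerase clamp (r = -0.84, adjusted p = 0.0233 by limma), CDCA7 (r = -0.82) and the nucleolar protein fibrillarin FBL (r = -0.66) passed. The r with MXI1 was negative for 15 of 19, with a median of -0.32 against -0.0091, and cyclin D2 CCND2 (r = -0.75) and FBL (r = -0.76) passed. Over all probe sets in IB, r was negative for 58.7% with MAX and 50.7% with MXI1, and 4.23% and 5.55% were called negative. Without centring, 1 of the 19 was called with MAX and 6 with MXI1, where 1.86% and 31.3% of all probe sets were called. The medians in DU×IB were -0.055 and -0.040, against -0.13 and 0.039 over all probe sets, and none passed. With MYCN, the median was 0.25 in IB and 0.12 in DU×IB, against -0.047 and 0.039. The slopes on MAX in IB and DU×IB were -1.14 and -1.12 for PCNA, -1.19 and -0.73 for CDCA7 and -0.63 and 0.42 for FBL. Those on MXI1 were -0.86 and -0.89 for CCND2 and -0.47 and -0.29 for FBL. None of these slopes differed between genetic types past the threshold.

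Repressed targets had a median r of 0.43 with MAX and 0.38 with MXI1 in IB, against -0.096 and -0.0091 over all probe sets. In IB, 3 of the 9 were negative with MAX and 3 with MXI1. Without centring the IB medians were 0.074 and 0.42, against -0.095 and 0.25 over all probe sets. In DU×IB the centred medians were 0.026 and -0.13, against -0.13 and 0.039. The cyclin-dependent kinase inhibitor CDKN1A (r = 0.62, adjusted p = 0.0991) and CEBPD (r = 0.63, adjusted p = 0.0948) passed with MAX by limma, and the stress gene GADD45G (r = 0.71, adjusted p = 0.0132) with MXI1. COL1A1 (r = -0.82) and THBS1 (r = -0.62) passed with MXI1 in the other direction. Positive calls were made for 2.18% of all probe sets with MAX and 5.59% with MXI1. Without centring, 0 of the 9 repressed targets were called with MAX and 6 with MXI1 in IB. The shares of all probe sets were then 1.86% and 31.3%. Of the E-box factors, the clock gene ARNTL passed with MAX (r = 0.65) and SREBF2, a regulator of sterol synthesis, with MXI1 (r = -0.56), both in IB. No corepressor or cofactor passed with any of the 3 factors.

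The study's extracellular matrix and proteolysis networks were built from genes it had chosen for their difference between genetic types on these arrays. In the matrix network, 20 of 22 genes were negative with MAX in IB (median r = -0.50 against -0.096 over all probe sets) and 19 of 22 with MXI1 (median r = -0.54 against -0.0091). Of all probe sets, 58.7% were negative with MAX in IB and 50.7% with MXI1. The collagens COL1A1, COL12A1 and COL5A1, with RRBP1 and the Wnt modulator SFRP2, passed with MXI1, at r between -0.82 and -0.65, and AGK, MATN2, POSTN, RRBP1 and SFRP2 passed with MAX, at r between -0.86 and -0.63. That is 5 of 22 negative calls for each factor, where 4.23% of all probe sets were called negative with MAX and 5.55% with MXI1. Without centring, 2 of the 22 were called with MAX and 6 with MXI1 in IB, against 1.86% and 31.3% of all probe sets. In DU×IB the medians were 0.093 for MAX and -0.13 for MXI1, against -0.13 and 0.039 over all probe sets, and 0 of 22 passed with either. With MYCN in DU×IB, ITGA6 passed.

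In the proteolysis network, 14 of 20 genes were positive with MXI1 in IB (median r = 0.41 against -0.0091 over all probe sets), and 6 passed, RNF19B (r = 0.86), PLA1A (r = 0.83), NUB1 (r = 0.74), MYLIP (r = 0.69), the proteasome subunit PSMD11 (r = 0.62) and AKAP7 (r = 0.57). With MAX, 13 of 20 were positive in IB (median r = 0.21 against -0.096), and AKAP7, MYLIP, DCTN4 and PSMD11 passed at r between 0.64 and 0.73. Positive calls with MXI1 were made for 5.59% of all probe sets and with MAX for 2.18%, while r in IB was negative for 50.7% and 58.7%. Without centring, 9 of the 20 were called with MXI1 and 1 with MAX in IB, against 31.3% and 1.86% of all probe sets. In DU×IB the medians were -0.14 for MAX, close to the -0.13 of all probe sets, and 0.25 for MXI1, against 0.039, and 0 of 20 passed. The sign in DU×IB was not stable, since the median for MXI1 was -0.11 without its 2 farthest piglets and that for MAX was 0.0402 with the array median taken out. No slope of either network differed between genetic types past the threshold for any of the 3 factors.

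**Figure D5:**
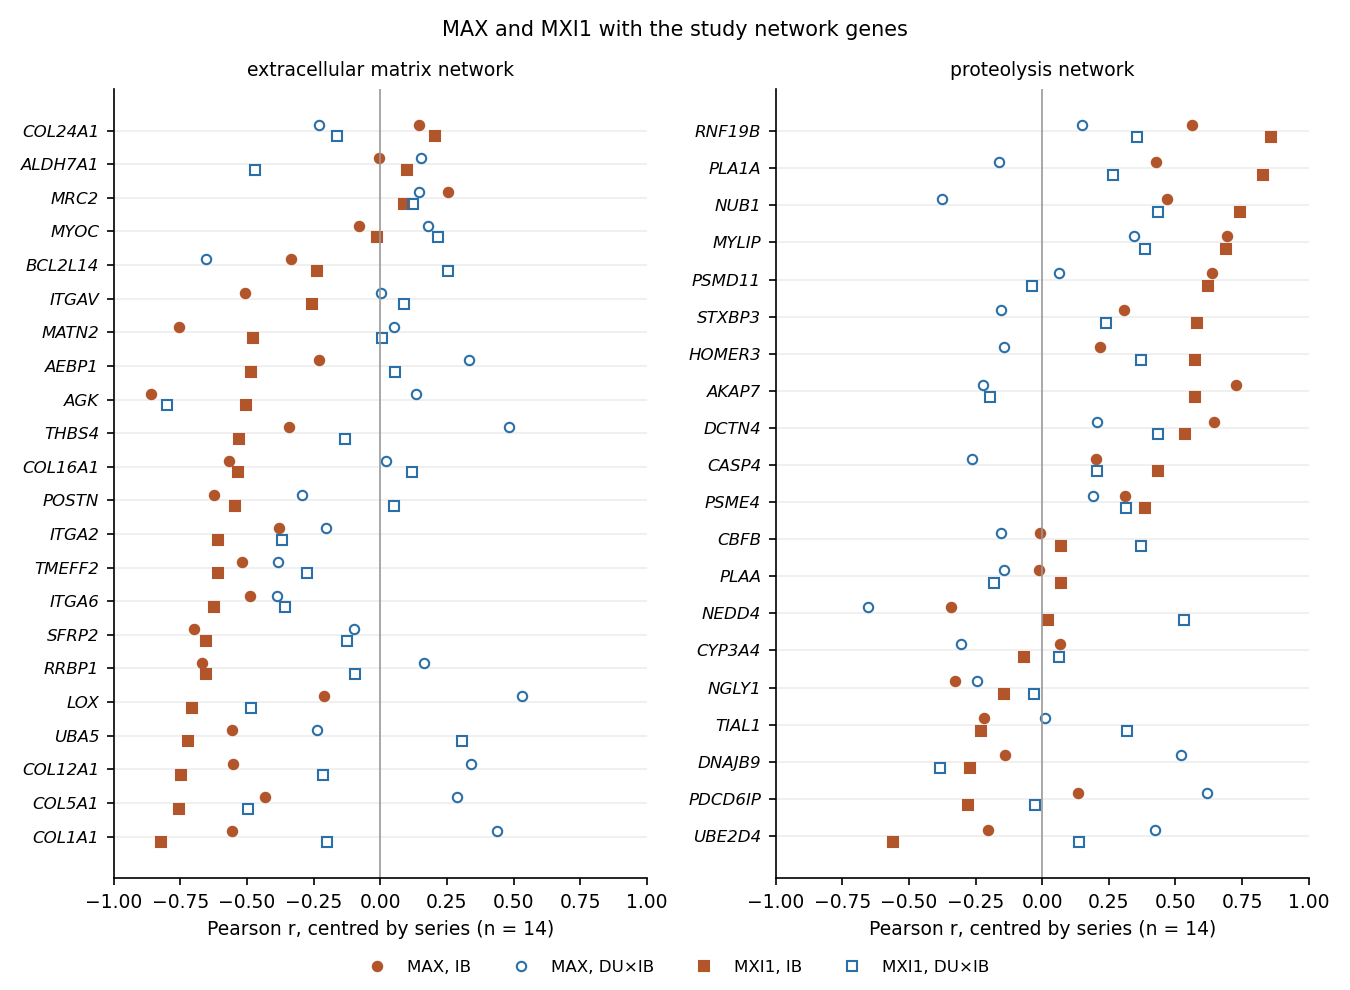
Pearson r with MAX (circles) and MXI1 (squares) over 14 piglets, centred by series (horizontal axis), for the genes of the study's extracellular matrix network (left, 22 genes) and proteolysis network (right, 20 genes), ordered by r with MXI1 in IB. Filled symbols are IB and open symbols DU×IB. In IB, 20 of 22 matrix genes lie below 0 for MAX and 19 of 22 for MXI1, against 58.7% and 50.7% of all probe sets.

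Summed levels of cell type markers are given as a description, and some of the markers are genes already named above. COL1A1 is also in the matrix network and among the repressed targets, and FMOD is among the genes most negative with MXI1 in IB. Sums that hold them are not separate support for these relations. The summed level of 3 of 8 fibroblast markers (COL1A1, FBN1, THY1) ran from 9.97 to 12.1 on the log2 scale in IB and from 11.5 to 12.9 in DU×IB, and in IB it had an r of -0.66 with MAX and -0.79 with MXI1. That of 2 of 5 tendon and cartilage markers (KERA, FMOD) ran from 6.51 to 10.6 in IB and from 8.92 to 12.0 in DU×IB, with r of -0.46 and -0.87 in IB. The same sums in DU×IB had r of 0.33 and 0.36 with MAX and of -0.22 and -0.14 with MXI1. For MYCN in DU×IB, the sum of 5 of 7 endothelial markers had an r of 0.73. This sum ran from 10.7 to 12.1 in DU×IB and from 10.5 to 12.3 in IB. Taken singly, the 5 had r from -0.063 to 0.74 with MYCN in DU×IB, with a median of 0.56 (1 negative). Without centring that median was 0.22, against 0.26 over all probe sets. VWF, one of these 5, passed in IB with MAX (r = 0.63) and MXI1 (r = 0.72). The median r of the 5 in IB was 0.19 with MAX (2 of 5 negative) and 0.12 with MXI1 (0 negative). In IB the endothelial sum had an r of 0.099 with MAX and 0.27 with MXI1. The sum of 4 of 8 macrophage markers, from 8.36 to 11.8 in IB and from 8.18 to 9.73 in DU×IB, had an r of 0.54 with MXI1 in IB, and that of 2 of 5 red cell markers, from 6.06 to 9.31 in IB and from 7.10 to 9.09 in DU×IB, had -0.57 with MAX in DU×IB. The 2 red cell markers taken singly had r of -0.56 and 0.20 with MAX there. The sum of 2 of 7 adipocyte markers had r below 0.5 in size with the 3 factors in both genetic types. So had the 1 of 6 myoblast markers (MYOD1) and 1 of 5 nerve markers (MBP) measured. The 2 adipocyte markers taken singly had r of -0.12 and 0.50 with MAX in IB, and -0.58 and 0.019 with MYCN in DU×IB. The part of these cell types in the results was not tested. The lowest value of the table was 1.44 on the log2 scale, so the table holds no 0 that could mark an absent transcript. ALAS2, a red cell marker, had a mean level of 3.82 and a median percentile of 6.61. The probe set for the 5′ end of actin had an r of -0.55 with MAX in IB, and of -0.22 without centring, which was not tested further. Its level alone does not measure RNA integrity.

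The regulatory impact scores, for which the study named the 3 factors, combine the level and difference of its 256 genes with the change in their correlation to a factor. They were computed as z-scores over 310 factors and are given as a description. MXI1 had the highest RIF2 of all 310 factors, at 3.34 (jackknife SE 0.87), which weighs correlations in IB against those in DU×IB. It ranked 3 without centring by series, at 2.75, and 4 with the array median taken out, at 2.67. MAX had a RIF1 of -2.39 (jackknife SE 2.33), and its RIF2 of 1.82 became -1.63 without centring. MYCN had a RIF1 of -0.67 (jackknife SE 1.79), which ranked 139 by size, and of -2.09 without centring, which ranked 18. RIF1 was smaller than its SE for MYCN and MXI1 (-1.80, SE 2.08) and about equal to it for MAX.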

How the data were processed

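RNA of the loin muscle of 28 piglets was hybridized to one array each. The authors read the images with GCOS and made the deposited log2 levels with GCRMA (versions not given in the sources used here), which corrects background by probe sequence and normalizes by quantiles. They kept 5226 probe sets by variation, and in all 5226 over 20% of the values lay 1.5-fold or more away from the probe set's median. Shares of called probe sets refer to this set. All 28 columns were used. Names came from the study's tables (572 probe sets) and the array annotation (2073), and 2581 have none. Entries with several symbols in that annotation (51) were not used as names. Precision is limited by how many arrays there are.

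The comparison of genetic types used limma (lmFit, eBayes) with the hybridization series as a term, two-sided, with Benjamini-Hochberg adjustment across the 5226 probe sets and a threshold of 0.10. The labels do not name the series, which was read from spike-in probe sets. Slopes on each factor had an intercept for each genetic type and series. Permutation tests drew 100000 permutations within series. The alternatives tried were scaling, covariates, blocks, array weights, priors, filters, ranks, single series and leaving out piglets. The fit of each genetic type alone, the spread test and leaving out piglets for slope counts were added after seeing the data. Same-numbered piglets are different animals. Their deviations correlated between -0.35 and 0.54, over 0.1 in 2 of 14 pairs, so the numbers do not pair them.

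Named genes are the factors, the members of the gene lists, for each factor and genetic type the 5 of most positive and 5 of most negative centred r, and up to 5 with a slope that differs, each by its brightest probe set. The genes called for MYCN and those in the scatter plot were chosen after their values were seen. The factors, lists and this rule were chosen with earlier results of these data known. Scripts were tested on simulated data. The tools were limma 3.58.1 in R 4.3.3, and scipy 1.17.1, numpy 2.4.6, pandas 2.3.3 and matplotlib 3.10.9 in Python 3.11.15.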

Additional observations from a re-analysis of the deposited data

Results flagged for a closer look

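The slope on MAX differed between genetic types for 4 genes by a test of the difference itself (limma, adjusted p = 0.0701 each). Per unit of MAX on the log2 scale, the slope in DU×IB minus that in IB was 3.41 for ACTG2, 2.55 for HSP90B1, -2.24 for FAIM and -2.71 for ZNF133. The number of such genes ran from 0 to 8 when one piglet was left out and was 0 with ranks.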

How the results depend on the processing

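Apart from leaving out single piglets, 137 of 186 alternative values across 43 results kept their direction and their side of the threshold or stayed near the first value, 4 lost the call, 6 turned the direction and 39 moved. For the genetic types, MAX lost its call at -0.52 (adjusted p = 0.245 by limma) without the series term, at -0.55 (0.104) with array median centring, at -0.52 (0.137) with the replicate block and at -0.32 (0.997) in piglets 1 to 8, where MXI1 turned to 0.0147. The adjusted p of MAX ran from 0.0411 to 0.0981 in the settings that kept the call. Called probe sets numbered 52 without the series term, 289 with the first residual component, 276 with array weights, 9 in piglets 1 to 8 and 229 in piglets 9 to 14. Leaving out one piglet gave -0.58 to -0.47 for MAX, with the call lost for 12 of 28, -0.44 to -0.23 for MXI1, 0.27 to 0.47 for MYCN and 103 to 221 calls (221 without IB piglet 4).

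For slopes on MAX, counts in IB were 97 without centring, 563 with the first principal component as a regressor, 0 with ranks, 1 in piglets 1 to 8, 57 in piglets 9 to 14 and 65 with IB fitted alone. In DU×IB they were 2821 without centring, 4 with the array median, 6 with the principal component and 609 with ranks. Slopes that differed numbered 1 without centring, 7 with the principal component and 0 with ranks or in either series alone. For MXI1, counts in IB were 1636 without centring, 983 with the array median, 1125 with the principal component, 0 with ranks, 104 in piglets 1 to 8, 142 in piglets 9 to 14 and 213 with IB fitted alone. For MYCN, they were 4 without centring, 0 with ranks or fitted alone and 1 in piglets 9 to 14 in IB, and in DU×IB 26 without centring or fitted alone, 0 with ranks and 1 in either series, with 2 slopes that differed in piglets 1 to 8. With one piglet left out, counts in IB were 144 to 811 for MAX, 279 to 671 for MXI1 and 2 to 10 for MYCN, counts in DU×IB 0 to 10 for MAX, 0 for MXI1 and 0 to 18 for MYCN, and slopes that differed 0 to 8 for MAX, 0 for MXI1 and 0 to 2 for MYCN.

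Without centring, the median r with the matrix network became -0.45 for MAX in DU×IB and -0.23 for MXI1 in IB, that of MAX with the proteolysis network in DU×IB became -0.47, and the RIF2 of MAX became -1.63. Over all probe sets the uncentred median r was -0.48 for MAX in DU×IB, close to both network values, and 0.25 for MXI1 in IB. The Spearman median of MYCN with the matrix network in DU×IB was 0.10. In the proteolysis network in DU×IB, the median was 0.0402 for MAX with the array median taken out, -0.14 to 0.0025 with one piglet left out, and -0.11 for MXI1 without the 2 farthest piglets. The causes of these changes were not tested, and MYCN lay near the lowest signals, where little can be resolved.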
